A study of Mus musculus with 8 samples.

Results

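Listed genes of replication, mitosis and cell cycle control were compared between the hearts of wild-type mouse embryos and of embryos homozygous for a floxed allele of *Kdm1a* (*Aof2*), the gene of the histone demethylase Lsd1. The list held 36 genes chosen by name, and 35 of them had at least 1 probe set annotated to that gene alone, out of 18194 genes with such a probe set on the array. The cyclin B gene *Ccnb1* had none and was not analysed here. Each gene was read in its brightest such probe set, and the 36 genes were ordered into 5 groups by their place in the cycle. RNA of 5 wild-type and 3 2lox/2lox hearts, all taken at E18.5 from littermates, was hybridized to Affymetrix Mouse430 arrays with 1 intact heart on each array. The 2lox allele keeps its floxed exons and carries point mutations in the tower domain of Lsd1, so without Cre the mutant animals still make a weakened protein, although the genotype label also calls them knock-outs. Wild-type animals carry neither the loxP sites nor the mutations.

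A dividing cell passes from G1 phase, where cyclin D and cyclin E kinases inactivate the retinoblastoma protein and release E2F, into DNA replication, and then through G2 phase into mitosis. The fetal heart still grows by division of its cardiomyocytes, which leave the cycle around birth, and endothelial cells and fibroblasts of the heart divide as well. Lsd1 removes methyl groups from histone H3 and is also known to act on non-histone proteins of cell cycle control, including E2F1 and p53. In whole hearts, fewer dividing cells and less of an RNA in each dividing cell cannot be told apart.

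No cell cycle gene of the list passed the test between genotypes. Each of the 45101 probe sets was fitted with limma, with Benjamini-Hochberg adjusted p-values and a threshold of 0.05. None of the 35 genes passed, beside 0.0798% of all probe sets (0.0621% higher and 0.0177% lower in the mutant). At an unadjusted p under 0.05 there were 4 genes, *Cdkn1a*, *Cdk6*, *Mcm3* and *Ccnd3*, all with positive differences, which is 11.4% of the 35, while 10.2% of all 18194 genes reached that level, 5.82% with positive and 4.41% with negative differences. The 2lox/2lox hearts lay outside the wild-type range for none of the 35, beside 5.97% of all genes (3.16% above and 2.81% below). The median log2 fold change over the 35 was 0.03, while over all 18194 genes it was -0.0046 and over all probe sets -0.0036. The median over the 35 was 0.0013 when each gene's probe sets were averaged and -0.0005 without 2lox/2lox heart 1. Of the 35, 21 values were above 0 and 14 below, beside 48% and 52% of all genes.

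The intervals around these differences were narrow for most of the genes. For 33 of the 35 the 95% interval of the log2 fold change lay within 0.5 of 0 on either side, which is a fold of 1.41, and this held for 93.3% of all genes. The exceptions were *Cdkn1a*, with an interval of 0.16 to 0.60, and *Ccne2*, with -1.38 to 0.08. Since 33 of the 35 differences were also smaller than 0.25 in size, *Ccne2* was the sole member beyond the fold of 1.4 that the study's methods name. The genes were well above the dim end of the array, with wild-type mean log2 levels between 5.79 and 12.40 against a lower quartile of all values of 4.21.

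**Figure D1:**
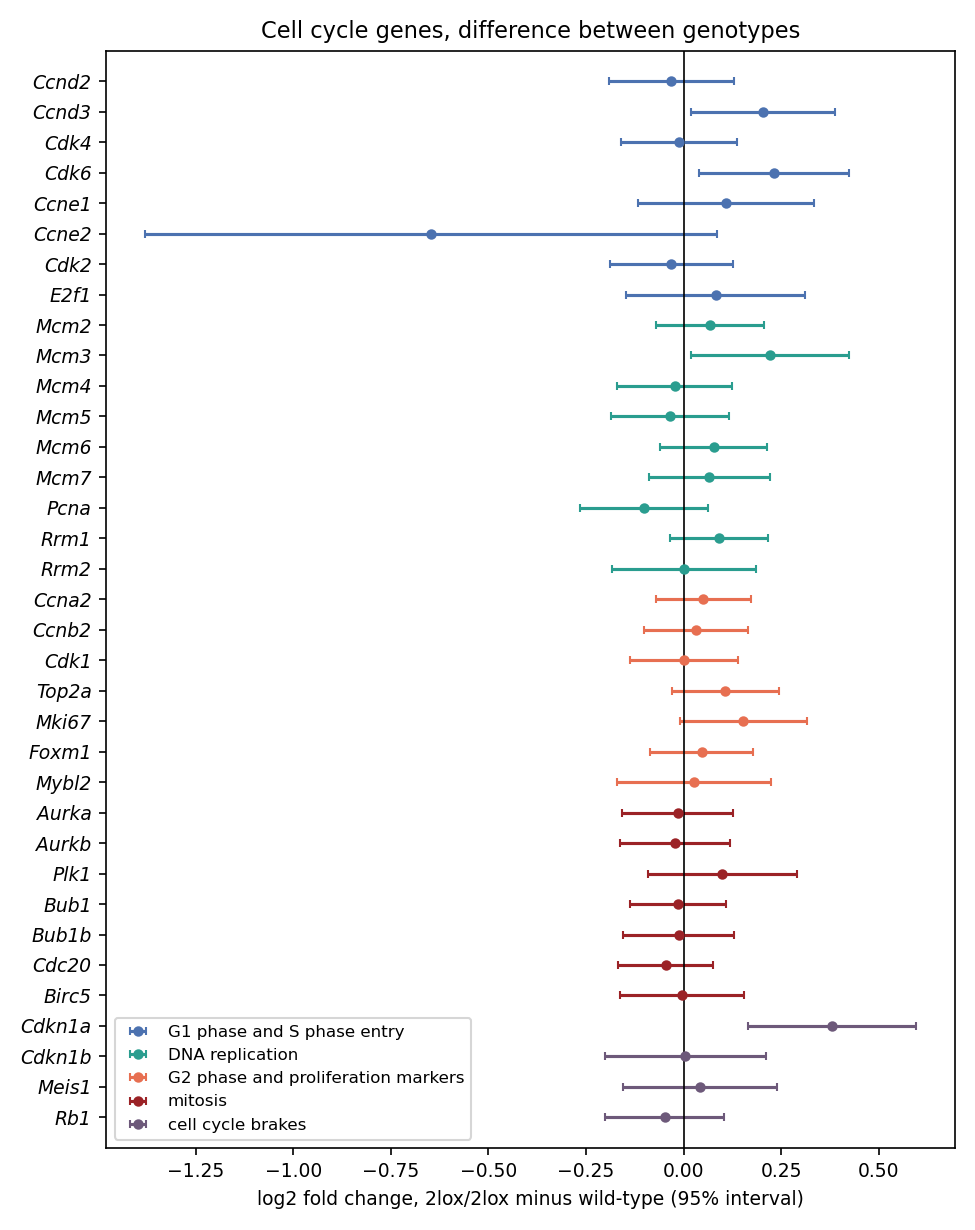
Log2 fold change (2lox/2lox minus wild-type, horizontal axis) of each of the 35 measured cell cycle genes, with its 95% interval from limma, coloured by group. The intervals of *Cdkn1a*, *Cdk6*, *Mcm3* and *Ccnd3* lie to the right of 0, and that of *Ccne2* reaches -1.38.

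The hearts matched their labels. *Kdm1a* read 10.26 to 10.36 on the log2 scale in the wild-type hearts and 9.44 to 9.55 in the 2lox/2lox hearts, in its brighter probe set. All 13 listed cardiomyocyte genes were bright, with wild-type means of 9.63 to 14.43. Of 10 measured thymus and lymphocyte genes, wild-type means lay between 3.66 and 6.31, and their mean deviation from the wild-type mean stayed between -0.07 and 0.09 in every heart. Control probe sets of *Actb* and *Gapdh* gave mean 3′ minus 5′ log2 differences of 0.52, 0.50 and 0.33 for 2lox/2lox hearts 1, 2 and 3, and of 0.32 to 0.38 for wild-type hearts. Among array controls for 18S RNA, the 5′ one read 9.55 to 11.49 in wild-type hearts on the log2 scale. It read 8.60, 9.07 and 8.45 in 2lox/2lox hearts 1, 2 and 3, all below the wild-type range. Its log2 fold change was -1.97 (adjusted p = 0.149, limma), the lowest of all probe sets. The 3′ and middle controls of that RNA had -0.17 and -0.47 and overlapped between genotypes. What set the 5′ reading apart was not tested. *Xist*, the RNA of the inactive X chromosome, was high in 2lox/2lox heart 3 and wild-type heart 2 and low in the other 6 hearts.

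Promoter windows of these genes were searched for the letters that known regulators bind. E2F factors bind GC-rich sites before genes of replication, and the DREAM and MuvB complexes bind the cell cycle homology region (CHR), often near CCAAT boxes of NF-Y, before genes of G2 phase and mitosis. RefSeq promoter windows (GRCm38.p6) of 300 bases, 250 of them before the start site, were matched by gene symbol for 29 of the 36 genes, in 32 windows. *Rb1*, *Foxm1*, *Aurkb*, *Ccna2*, *Ccne2*, *Mcm4* and *Ccnd2* had no entry. Both strands were searched. The CHR was spelled TTTGAA in its usual form and TTCGAA in its variant form. The NF-Y box was spelled CCAAT alone. E2F sites were spelled TTCCCGC, with the further forms TTGGCGC, then also TTCGCGC, and finally TTGCCGC, some of which overlap when read on opposite strands.

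An E2F match stood in 7 of 9 windows of the replication genes, against 9.6% of all 32851 windows, and CCAAT stood in all 9, against 37.4%. Of the 12 windows of G2 phase and mitosis genes, 9 held both a CHR match and CCAAT, against 7.5% of all windows, and 3 held an E2F match. None of the 7 windows of the G1 genes held a CHR match, against 19.2%, and 1 held an E2F match. Neither of the windows of *Cdkn1a* held any of these letters. A match is a stretch of letters and not a measured binding site. The 250 bases before the start site are shown for a pair of replication genes and a pair of G2 phase genes, 5′ to 3′ on the strand of the gene, because their matches are of contrasting kinds. Capitals mark the matches.
Mcm5, chr8:75109259-75109508, plus strand: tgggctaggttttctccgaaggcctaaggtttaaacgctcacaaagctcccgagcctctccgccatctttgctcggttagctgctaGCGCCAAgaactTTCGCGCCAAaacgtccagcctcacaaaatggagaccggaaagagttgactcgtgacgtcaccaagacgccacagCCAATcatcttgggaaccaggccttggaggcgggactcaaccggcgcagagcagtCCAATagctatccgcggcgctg
Mcm6, chr1:128359706-128359955, minus strand: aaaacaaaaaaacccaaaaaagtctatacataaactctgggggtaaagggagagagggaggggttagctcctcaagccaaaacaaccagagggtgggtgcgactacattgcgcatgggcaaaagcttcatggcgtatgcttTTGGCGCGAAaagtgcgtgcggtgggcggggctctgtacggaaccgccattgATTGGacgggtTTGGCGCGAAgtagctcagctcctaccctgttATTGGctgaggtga
Cdk1, chr10:69352913-69353162, minus strand: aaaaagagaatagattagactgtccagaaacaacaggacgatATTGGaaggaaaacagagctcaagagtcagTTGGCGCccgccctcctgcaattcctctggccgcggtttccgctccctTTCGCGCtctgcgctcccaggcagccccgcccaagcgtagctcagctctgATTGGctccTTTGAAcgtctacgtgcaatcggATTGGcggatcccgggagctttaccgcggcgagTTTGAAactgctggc
Mki67, chr7:135716380-135716629, minus strand: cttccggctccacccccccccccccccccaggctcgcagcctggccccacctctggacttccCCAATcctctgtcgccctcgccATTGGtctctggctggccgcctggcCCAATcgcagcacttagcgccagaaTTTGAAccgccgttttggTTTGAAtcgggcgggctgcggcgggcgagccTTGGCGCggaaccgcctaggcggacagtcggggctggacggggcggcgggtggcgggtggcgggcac
In *Mcm5* and *Mcm6* the capitals are E2F and CCAAT matches, with no CHR. *Cdk1* and *Mki67* hold all 3 kinds, and the last CHR match of *Cdk1* lies just before its start site.

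Genes of G1 phase and of entry into S phase had a median log2 fold change of 0.03 over 8 genes, and 2 of them, *Cdk6* and *Ccnd3*, were among the 4 named above. *Cdk6* encodes a kinase that works with D-type cyclins. Its log2 levels were 8.71, 8.44, 8.78, 8.49 and 8.59 in wild-type hearts 1 to 5 and 8.91, 8.83 and 8.75 in 2lox/2lox hearts 1 to 3. Hearts 1 and 2 of the mutant were above every wild-type heart, and 2lox/2lox heart 3 lay just under the highest of them. The log2 fold change was 0.23 (SE 0.09, adjusted p = 0.368 by limma), and the other probe sets of the gene had 0.11 and 0.03.

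*Ccnd3*, the gene of cyclin D3, read 10.66, 10.42, 10.67, 10.65 and 10.65 in the wild-type hearts and 10.91, 10.88 and 10.65 in the 2lox/2lox hearts, on the log2 scale. Again 2lox/2lox hearts 1 and 2 were the highest, and 2lox/2lox heart 3 was level with 4 of the 5 wild-type hearts. Its log2 fold change was 0.20 (SE 0.08, adjusted p = 0.415 by limma). *Ccnd2*, another D-type cyclin gene, and *Cdk4*, a partner kinase of these cyclins, had -0.03 and -0.01. Log2 levels of *Ccnd2* spanned 11.58 to 11.88 in wild-type hearts and 11.71 to 11.75 in 2lox/2lox hearts, so the mutant hearts lay inside the wild-type range.

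*Ccne2*, the gene of cyclin E2, which drives Cdk2 at the start of S phase, was low in a single heart. Log2 levels were 8.52, 8.30, 8.45, 8.50 and 8.67 in the wild-type hearts, and 6.70, 8.44 and 8.38 in 2lox/2lox hearts 1, 2 and 3. Only 2lox/2lox heart 1 departed from the rest, by a fold of 3.40 below the mean of the other 7 hearts. Its gap of 1.60 below the next heart was the widest downward gap of that array, reached by 1 of 18194 genes, *Ccne2* itself. Across genotypes the log2 fold change was -0.65 (SE 0.33, adjusted p = 0.520 by limma), and without 2lox/2lox heart 1 it was -0.08. The gene has 1 probe set, so no second reading of that heart was at hand.

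The remaining genes of the group did not separate the genotypes. *Ccne1*, the gene of cyclin E1, read 7.99 to 8.40 in wild-type hearts and 8.19 to 8.41 in 2lox/2lox hearts on the log2 scale. *Cdk2*, the kinase of both E cyclins, read 9.04 to 9.26 and 9.01 to 9.22. *E2f1*, which switches on replication genes, read 7.09 to 7.49 and 7.22 to 7.55, with a log2 fold change of 0.08 and an interval of -0.15 to 0.31. All 3 ranges overlapped between genotypes.

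Replication genes had a median log2 fold change of 0.07 over 9 genes, 6 of them with positive values, but the sign rested on which probe sets were read. Averaging each gene's probe sets gave a median of -0.0382. The minichromosome maintenance genes *Mcm2* to *Mcm7* encode the 6 subunits of the helicase that opens DNA at origins. *Mcm3* read 9.69, 9.48, 9.63, 9.64 and 9.80 in the wild-type hearts and 10.05, 9.85 and 9.71 in the 2lox/2lox hearts, on the log2 scale. Both 2lox/2lox hearts 1 and 2 were above all wild-type hearts, and heart 3 was within their range. The log2 fold change of *Mcm3* was 0.22 (SE 0.09, adjusted p = 0.415 by limma). The gene has 5 probe sets, and they did not move one way. The brightest and 2 others gave 0.22, 0.17 and 0.19, while another gave -0.17 (adjusted p = 0.450, limma).

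The other subunits of the helicase stayed close to 0 in their brightest probe sets. *Mcm2* had a log2 fold change of 0.07, *Mcm4* -0.02, *Mcm5* -0.03, *Mcm6* 0.08 and *Mcm7* 0.07, each with an interval inside 0.25 of 0 on either side. Their dimmer probe sets ran from -0.19 in *Mcm4* to 0.11 in *Mcm2*. That of *Mcm4* had a wild-type mean log2 level of 10.01 and an interval of -0.38 to 0.0042 (adjusted p = 0.469, limma). No test of *Mcm3* against its partners was run. *Pcna*, the sliding clamp of DNA polymerase, had the largest negative value of the group, -0.10 with an interval of -0.27 to 0.06, and its lowest log2 level was 12.16 in 2lox/2lox heart 2.

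Ribonucleotide reductase makes the deoxyribonucleotides for replication. *Rrm1*, its large subunit, read 10.61 to 10.75 in wild-type hearts and 10.70 to 10.77 in 2lox/2lox hearts in its brightest probe set, with a log2 fold change of 0.09. This probe set was the brightest over all 8 hearts but not in the wild-type hearts alone, where its mean log2 level was 10.65, so the mutant hearts decided the choice. The probe set that was brightest in wild-type hearts had a wild-type mean of 10.67 and read 10.59 to 10.81 in those hearts and 10.38, 10.18 and 10.67 in 2lox/2lox hearts, a log2 fold change of -0.27 (SE 0.10, adjusted p = 0.377 by limma). In that probe set 2lox/2lox hearts 1 and 2 were below every wild-type heart, the hearts whose 3′ minus 5′ differences were 0.52 and 0.50, and the part of RNA quality in it was not tested. With *Rrm1* read there, the replication median was 0.0008, with 5 positive and 4 negative values, and *Rrm1* was the 1 member of 35 whose probe set changed under that choice, which was made after the data were seen. *Rrm2*, the small subunit, had a log2 fold change of 0.00 with an interval of -0.18 to 0.18 in its brightest probe set. A dimmer probe set of *Rrm2* gave -0.0004, and another gave -0.23 with an interval of -0.48 to 0.03 (adjusted p = 0.519, limma). In the latter, 2lox/2lox hearts 1 and 2 read 10.10 and 10.01, below the wild-type range of 10.18 to 10.65.

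Among genes of G2 phase and proliferation markers all 7 measured log2 fold changes were positive, but small, with a median of 0.05. The highest of these values came from 2lox/2lox hearts 1 and 2, whose 3′ minus 5′ differences were 0.52 and 0.50. With that difference in the fit the median was 0.0023. No wild-type heart had a difference that large, so the fit could not fully separate it from genotype. *Mki67*, whose protein Ki-67 marks cycling cells, had the largest log2 fold change of the group. Its log2 levels were 11.20, 11.30, 11.29, 11.28 and 11.12 in wild-type hearts and 11.41, 11.51 and 11.26 in 2lox/2lox hearts. As with *Ccnd3*, 2lox/2lox hearts 1 and 2 were the highest of all and heart 3 was among the wild-type hearts. The log2 fold change was 0.15 (SE 0.07, adjusted p = 0.487 by limma). *Top2a*, the topoisomerase that untangles replicated chromosomes, read 10.96 to 11.05 in wild-type hearts and 11.23, 11.06 and 11.04 in 2lox/2lox hearts, with a log2 fold change of 0.11 (adjusted p = 0.589, limma).

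Genes of mitotic entry had differences near 0. *Cdk1*, the mitotic kinase, had a log2 fold change of 0.0013 with an interval of -0.14 to 0.14. Its cyclins *Ccna2* and *Ccnb2* had 0.05 and 0.03, with intervals of -0.07 to 0.17 and -0.10 to 0.16. *Ccnb2* was the steadiest member among the wild-type hearts, with log2 levels of 10.03 to 10.09 and an SD of 0.02 (n = 5), and in the 2lox/2lox hearts it spread from 9.97 to 10.16. *Foxm1* and *Mybl2* encode the transcription factors that switch on late cell cycle genes. They had 0.05 and 0.03, and *Mybl2* was the dimmest member, at 5.72 to 5.88 in wild-type hearts and 5.62 to 6.02 in 2lox/2lox hearts.

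Mitosis genes had a median log2 fold change of -0.01 over 7 genes, with 6 values below 0. *Aurka* and *Aurkb*, the Aurora kinases of the spindle pole and of the chromosomal passenger complex, had -0.02 and -0.02. *Birc5*, the survivin subunit of that complex, had -0.01. *Bub1* and *Bub1b*, the kinase and the pseudokinase of the spindle checkpoint, had -0.01 and -0.01, and *Cdc20*, the activator of the anaphase-promoting complex, had -0.05. The interval of each of these 6 genes lay between -0.17 and 0.15. *Cdc20* is on chromosome 4, 18.11 Mb from *Kdm1a* (GRCm38.p6).

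*Plk1*, the Polo-like kinase of mitotic entry, was the sole positive value of the mitosis group. Log2 levels were 8.86, 8.80, 8.99, 8.89 and 8.76 in wild-type hearts and 9.16, 8.87 and 8.84 in 2lox/2lox hearts. Here 2lox/2lox heart 1 alone was above the wild-type range, and the log2 fold change was 0.10 with an interval of -0.09 to 0.29. *Aunip*, whose product binds Aurora A, read 6.59 to 6.92 in wild-type hearts and 5.53 to 5.92 in 2lox/2lox hearts, with a log2 fold change of -1.01 (adjusted p = 0.00434, limma). The gene stands outside the cell cycle lists used here and was named because it was already known to pass. *Aunip* lies 2.03 Mb from *Kdm1a*, the targeted gene, and the part of that position in its value was not tested. *Aurka* itself read 9.18 to 9.32 and 9.16 to 9.35, with no separation.

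Of the genes that hold the cycle back, *Cdkn1a* had the smallest p of all 35. It encodes p21, an inhibitor of cyclin-dependent kinases and a target of p53. Log2 levels were 8.33, 8.18, 8.45, 8.23 and 8.31 in wild-type hearts 1 to 5 and 8.78, 8.83 and 8.44 in 2lox/2lox hearts 1 to 3. The first 2 mutant hearts were above every wild-type heart, and 2lox/2lox heart 3 was just below the highest of them. *Cdkn1a* had means of 8.30 ± 0.10 (SD, n = 5) and 8.68 ± 0.21 (SD, n = 3) and a log2 fold change of 0.38, with a standard error of 0.10 and a limma adjusted p of 0.234. Its dimmer probe set had 0.20 (adjusted p = 0.579, limma).

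The value of *Cdkn1a* rested on which 2lox/2lox hearts were included. Without 2lox/2lox heart 3 the log2 fold change was 0.50 and it passed the test (adjusted p = 0.0248, limma), in a fit that called 1.77% of all probe sets. Leaving out 2lox/2lox heart 1 gave 0.33 (adjusted p = 0.593, limma), and leaving out 2lox/2lox heart 2 gave 0.31 (adjusted p = 0.570, limma). When the 3′ minus 5′ difference entered the fit as a further term, the log2 fold change of *Cdkn1a* was 0.16, with an interval of -0.05 to 0.36. Only 2lox/2lox hearts 1 and 2 lay above the wild-type range in that difference, so the fit could not fully separate it from genotype. Among the further cell cycle genes, 4 that are also known as p53 targets are given beside *Cdkn1a*, and none of the 4 passed the test. They were picked and are not a full set of such targets, and the p53 gene *Trp53* had no probe set of its own. *Ccng1*, the gene of cyclin G1, had a log2 fold change of 0.0044 (interval -0.18 to 0.19), and *Mdm2*, the ubiquitin ligase of p53, had -0.02 (interval -0.17 to 0.13). *Btg2*, an antiproliferative gene, had 0.13 (interval -0.03 to 0.30), and *Gadd45a*, a growth arrest gene, had -0.13 (interval -0.64 to 0.39). Their difference from *Cdkn1a* was not tested.

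The other brakes had differences near 0. *Cdkn1b*, the gene of the inhibitor p27, read 9.44 to 9.83 in wild-type hearts and 9.49 to 9.68 in 2lox/2lox hearts on the log2 scale, a log2 fold change of 0.0043. *Meis1*, a homeobox gene linked to cell cycle exit of cardiomyocytes, read 8.07 to 8.35 and 8.13 to 8.43, a log2 fold change of 0.04. *Rb1*, the retinoblastoma gene, read 7.45 to 7.66 and 7.49 to 7.59, a log2 fold change of -0.05. Intervals of these 3 genes lay between -0.20 and 0.24.

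**Figure D2:**
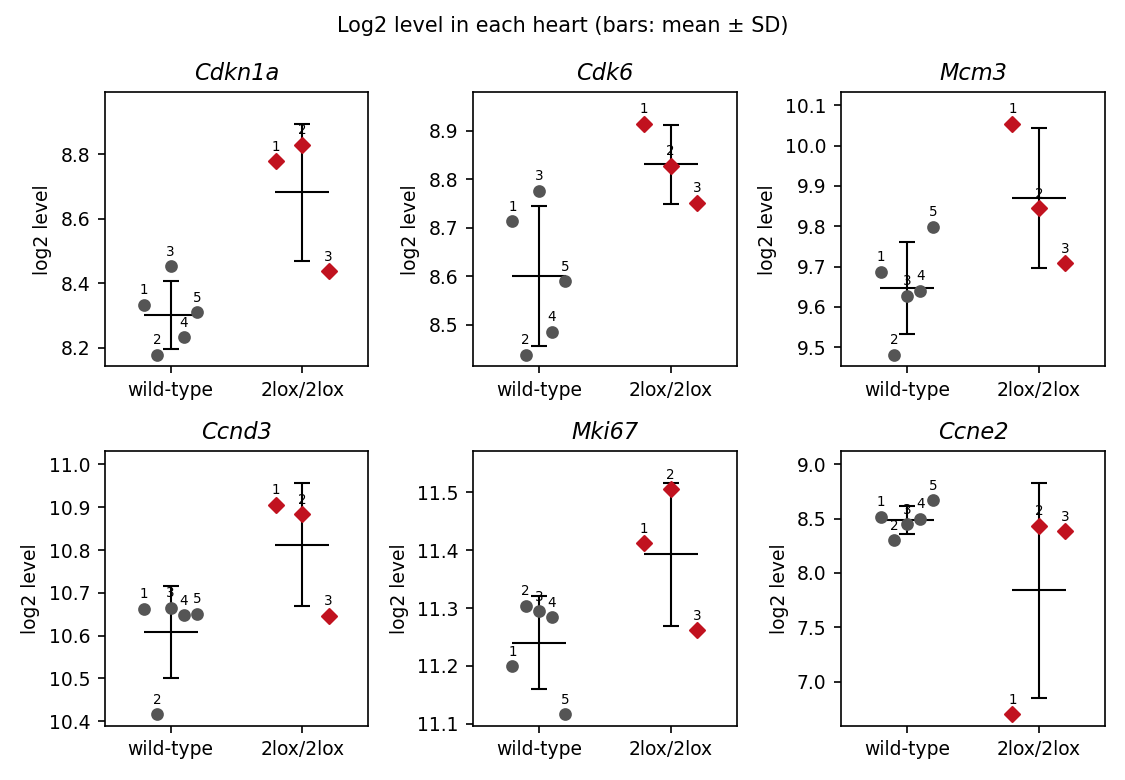
Log2 level (vertical axis, scaled to each gene) of *Cdkn1a*, *Cdk6*, *Mcm3*, *Ccnd3*, *Mki67* and *Ccne2* in each of 5 wild-type and 3 2lox/2lox hearts, numbered by replicate, with bars for each group's mean ± SD. In the first 5 genes 2lox/2lox hearts 1 and 2 lie above the wild-type hearts and heart 3 does not, and *Ccne2* is low in 2lox/2lox heart 1 alone, at 6.70.

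The same hearts were high or low across many of the genes. Of the 35 genes, 2lox/2lox heart 1 had the highest log2 level in 16, heart 2 in 5 and heart 3 in none. Over all 18194 genes these hearts were highest in 18.4%, 9.9% and 9.8%, so heart 1 led all hearts there too. The lowest level of 11 genes was in wild-type heart 2, among them 5 of the 9 replication genes, while 12.8% of all genes were lowest in that heart. These counts were not tested. Averaged over the replication genes, the log2 deviation from the wild-type mean was -0.10 in wild-type heart 2 and 0.11 in 2lox/2lox heart 1, and between -0.01 and 0.06 in the other 6 hearts. Wild-type heart 2 also had the lowest erythroid score of all hearts, -0.59, and the highest fibroblast score, 0.40. The part of cell composition, of sex and of RNA quality in these heart-to-heart differences was not tested.

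**Figure D3:**
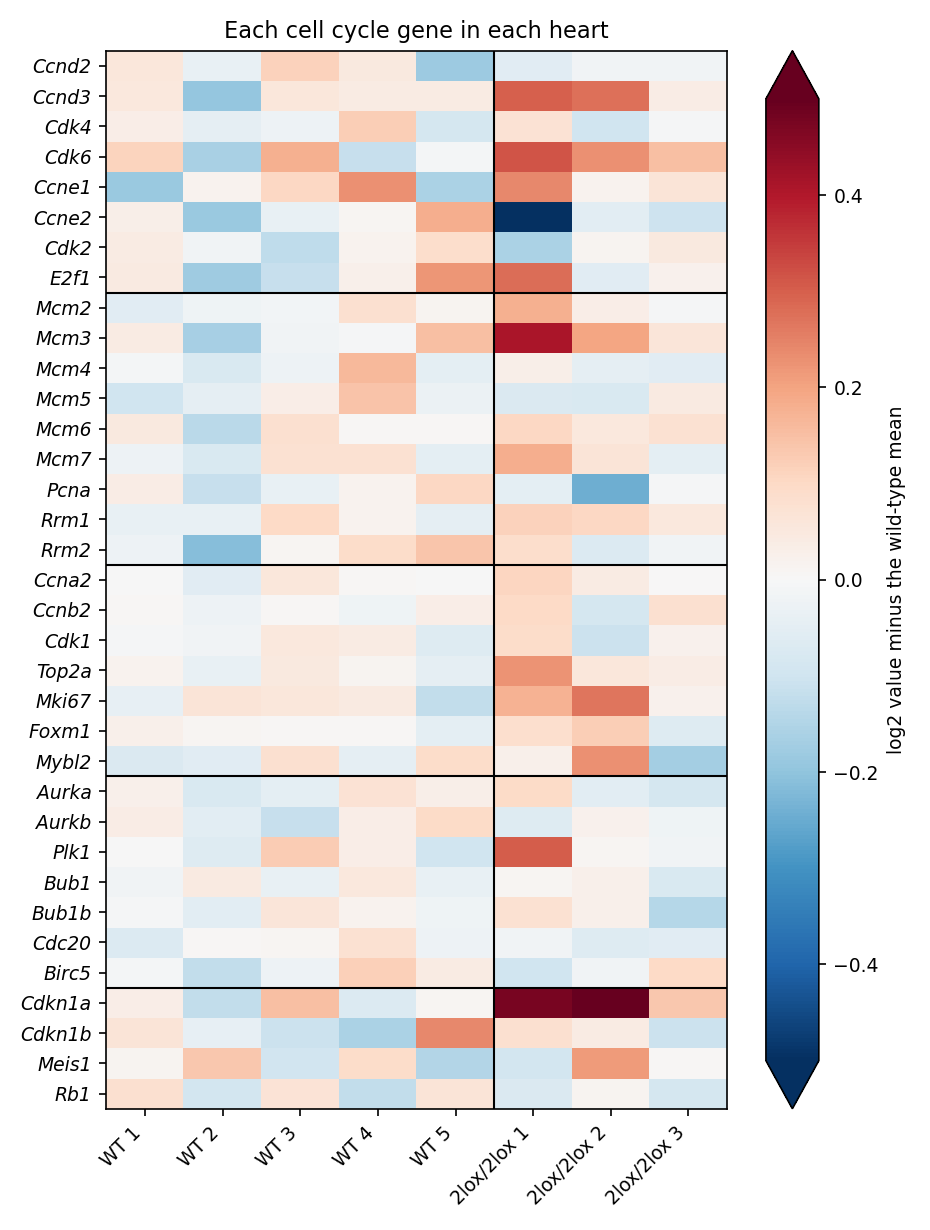
Log2 value minus the wild-type mean (colour, limited to 0.5 on either side) of each measured cell cycle gene (rows, ordered by group with lines between groups) in each heart (columns). The column of 2lox/2lox heart 1 holds the highest value of 16 genes, and the darkest blue cell is *Ccne2* in that heart.

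Replication genes had the highest mean pairwise correlation of the 5 groups. After each group mean was subtracted, the mean Pearson correlation between pairs of the 9 replication genes over the 8 hearts was 0.383, while over all 18194 genes it was 0.008. The value was 0.223 for the 7 genes of G2 phase and proliferation markers, 0.149 for the 7 mitosis genes, 0.116 for the 4 brakes and -0.005 for the 8 genes of G1 phase and S phase entry. Among the listed genes outside the 36, replication genes were not the highest. There it was 0.304 for 8 genes of G1 phase and S phase entry and 0.285 for 25 replication genes. For 39 genes of G2 phase and mitosis it was 0.116, and for 20 brakes -0.008. Cell type marker lists had 0.476 for erythroid and 0.446 for fibroblast genes, and 0.111 to 0.343 in the remaining lists, so such shared variation was not particular to replication genes. All pairs share the same 8 arrays, so these values describe these hearts and are not tests.

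Scores of each group by heart showed no separation of the genotypes. Mitosis genes had mean deviations of 0.04, -0.01 and -0.04 for the mutant and -0.05 to 0.06 for the wild type. The highest of these was wild-type heart 4, which also had the highest erythroid score, 0.81. For genes of G2 phase and proliferation markers the 2lox/2lox hearts had 0.115, 0.07 and -0.01, against a wild-type range of -0.02 to 0.04. The G1 group had -0.10 in 2lox/2lox heart 1, which became 0.14, beside -0.09 to 0.05 in wild-type hearts, with *Ccne2* left out, a choice made after its values were seen. Brakes had 0.10, 0.20 and -0.01 against -0.06 to 0.05, where *Cdkn1a* was the member farthest above its wild-type mean in 2lox/2lox hearts 1 and 2.

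**Figure D4:**
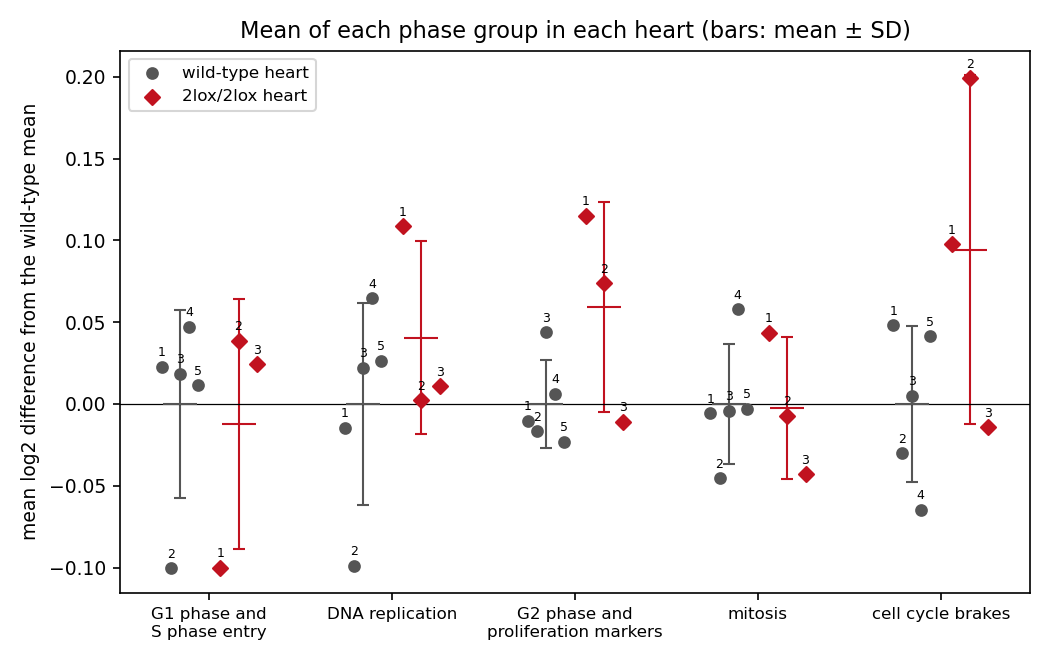
Average over the genes of each group of the log2 level minus its wild-type mean (vertical axis), by heart. Points are hearts numbered by replicate (5 wild-type, 3 2lox/2lox) with bars for each genotype's mean ± SD. In every group at least 1 2lox/2lox heart lies among the wild-type hearts, and the brakes reach 0.20 in 2lox/2lox heart 2.

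Cell cycle genes beyond the 36 were read in the same way. Of 95 further genes listed, 92 had a probe set of their own, none passed the test, and 6 reached an unadjusted p under 0.05 in limma, which is 6.52% against 10.2% of all genes. Their median log2 fold change was 0.015. The 4 lowest p among positive values belonged to *Uhrf1*, a partner of the maintenance DNA methyltransferase, with 0.28 (adjusted p = 0.283, limma), *E2f2*, an E2F activator, with 0.30 (adjusted p = 0.327, limma), *Espl1*, the separase gene, with 0.17, and *Btg2*. Among negative values they belonged to *Nuf2* and *Spc25*, of the kinetochore Ndc80 complex, with -0.26 (adjusted p = 0.267, limma) and -0.23 (adjusted p = 0.450, limma), *Kif20a*, a kinesin of cytokinesis, with -0.20 (adjusted p = 0.326, limma), and *Rpa2*, a single-strand DNA binding protein, with -0.15.

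In 3 of the 92 further genes the genotypes did not overlap, beside 5.97% of all genes. *E2f2* read 5.96 to 6.41 in wild-type hearts and 6.42 to 6.64 in 2lox/2lox hearts, so the mutant hearts were higher by a narrow gap. *E2f2* and *Rpa2* are chromosome 4 genes, 0.35 and 3.77 Mb from *Kdm1a*, the targeted gene (GRCm38.p6). The part of this position in their values was not tested. *Nuf2* read 9.37 to 9.48 in wild-type hearts and 9.33, 9.02 and 9.11 in 2lox/2lox hearts, and *Kif20a* read 9.04 to 9.19 and 8.79, 8.85 and 9.02. *Ccnd1*, the D-type cyclin gene outside the 36, had a log2 fold change of 0.07, and *Cdkn1c*, the imprinted gene of the inhibitor p57, had -0.12 with an interval of -0.33 to 0.09.

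Of 16 macrophage and myeloid genes 3 passed the test and 13 did not, beside 0.148% of all genes that passed. All 16 had positive differences, and their summed log2 level spanned 103.2 to 106.9 for the mutant and 95.3 to 100.8 for the wild type. The 3 that passed, *Lgals3*, *Plac8* and *Cybb*, had log2 fold changes of 0.88, 0.93 and 0.83 (limma adjusted p = 0.0240, 0.0303 and 0.0346). All 3 are among the genes that the study listed as changed on these same arrays. The marker list was chosen with earlier results of these data known, so their passing is no separate support. Over all 16 genes the mean deviation from the wild-type mean was 0.35, 0.40 and 0.58 for mutant hearts 1 to 3, highest in the heart where *Cdkn1a*, *Mki67* and *Mcm3* were lowest among the mutants. Summed cardiomyocyte genes lay at 168.9 to 170.4 and 169.9 to 170.8, and the erythroid sums at 40.5 to 50.3 and 43.1 to 46.4. Their part in the cell cycle values was not tested.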

How the data were processed

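RNA of 5 wild-type and 3 2lox/2lox hearts at E18.5 was measured on Affymetrix Mouse430 arrays. Deposited were log2 levels for 45101 probe sets, which the authors had summarized and normalized before deposit by a method not given in the sources used here. Array medians lay between 5.03 and 5.10, and no further normalization was applied. The submitters' processing notes name limma with no version. Low values depend most on how background was treated, so small differences of dim probe sets can be understated.

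Probe sets were named by the array's annotation, with symbols brought up to date by gene ID in a RefSeq table of GRCm38.p6 (34958 probe sets with 1 gene, 932 with several, 9211 with none). A gene was read in its brightest single-gene probe set over all hearts. All 8 hearts entered the fit (R 4.3.3, limma 3.58.1, lmFit and eBayes, two-sided, 2lox/2lox minus wild-type, Benjamini-Hochberg over all probe sets, threshold 0.05), and intervals are at 95%. Hearts came from separate embryos, and the p-values set the difference between genotypes against the spread between hearts. Litter was not a term of the main fit. The number of arrays limits the precision.

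The named genes were all members, *Kdm1a*, *Aunip*, the 4 smallest p in each direction among further cell cycle genes, and 3 myeloid markers. Further genes are named to set beside these. The members, lists and tests were chosen with earlier results of these data known. Alternatives were an intensity trend or robust moderation, quantile normalization, median centring, 2 filters that dropped dim probe sets (those with fewer than 3 hearts at a log2 value of 5 or more, or a mean not over the median), weights per array, a replicate block, the 3′ minus 5′ control difference or a sex score as a covariate, each heart left out, averaging a gene's probe sets and, added after seeing the data, the brightest probe set over wild-type hearts alone. The script was tested on simulated data.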

Additional observations from a re-analysis of the deposited data

Results flagged for a closer look

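Among the 5 wild-type hearts, 3 of the 35 genes had a heart that stood apart by Dixon's criterion at the 95% level, which flags about 1 in 20 groups by chance. *Ccnd3* had a log2 level of 10.42 in wild-type heart 2, and the remaining wild-type hearts had 10.65 to 10.67. *Mcm4* read 10.58 in wild-type heart 4, against 10.34 to 10.41. *Foxm1* read 7.07 in wild-type heart 5, against 7.12 to 7.14. The group of 3 2lox/2lox hearts was too small for this criterion, so the low *Ccne2* value of 2lox/2lox heart 1 was not tested by it.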

How the results depend on the processing

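No cell cycle member passed in any of the 20 alternatives but 1. The exception, *Cdkn1a* without 2lox/2lox heart 3, is a fit that called 797 probe sets in place of 36, and over the hearts left out in turn the number ran from 17 to 797 over all probe sets, from 0 to 1 over the members and stayed at 0 over the further cell cycle genes (limma). The 3′ minus 5′ covariate left 9 probe sets past the threshold, and the replicate block left 0. Members at an unadjusted p under 0.05 numbered 4, where 10.9% of all probe sets reached that level. They numbered 0 with that covariate (3.51% of all probe sets), 2 with median centring (10.3%), 2 with the replicate block (7.43%) and 1 to 6 with a heart left out (6.92% to 15.6%). Same-numbered hearts did not deviate together (correlations of 0.01, -0.08 and -0.05 over all probe sets), so the numbers were not taken as pairs, and under the block the median over the members was 0.0352. With the 3′ minus 5′ covariate the median log2 fold change was 0.0023 for genes of G2 phase and proliferation markers and -0.0526 for mitosis genes. That covariate was above the wild-type range in 2lox/2lox hearts 1 and 2 alone, so it could not be fully separated from genotype. Averaging each gene's probe sets gave the replication genes -0.0382. Choosing the brightest probe set over wild-type hearts alone, an alternative added after seeing the data, gave them 0.0008 and all members 0.0043. With a heart left out the medians ran from -0.0005 to 0.0597 over all members, 0.007 to 0.0908 for the G1 group, 0.0083 to 0.0779 for replication, 0.0279 to 0.1022 for G2 phase, -0.0344 to 0.0163 for mitosis and -0.0296 to 0.0604 for brakes. The causes were not tested. The sign held in all 20 alternatives for 13 of the 35 genes, and in the other 22 the difference was at most 0.10 in size.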

Other observations

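Dimmer probe sets of a pair of members read differently from the brightest one in the 2lox/2lox hearts with the larger 3′ minus 5′ differences. The 2 moved in opposite directions, and the part of RNA quality in them was not tested. A probe set of *Ccnd2* read 6.36 to 6.74 in the wild-type hearts and 5.37, 5.94 and 6.67 in 2lox/2lox hearts 1, 2 and 3, on the log2 scale, with a log2 fold change of -0.60 (adjusted p = 0.382, limma). A dim probe set of *Meis1* read 4.83 to 5.09 in the wild-type hearts and 5.41, 5.69 and 4.92 in the 2lox/2lox hearts, with a log2 fold change of 0.38 (adjusted p = 0.369, limma). Over all 87 probe sets of the members none passed the test, and 8 reached an unadjusted p under 0.05 in limma, which is 9.20% against 10.9% of all probe sets. Of the 28 members with more than 1 probe set, 13 had probe sets that differed in sign.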
